A study of Brassica napus with 33 samples.

Results

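The *Brassica napus* root transcriptome was examined here at 3 genes annotated as ATP sulfurylase: BnaCnng62800D, BnaA03g36860D and BnaC01g22950D. They were the ATP sulfurylase entries of a table in the study that listed sulfur metabolism genes for their response to N deprivation, and they are 3 of the 101040 genes counted in each library. The study had placed them there because their transcripts were lower under N deprivation and were not called lower under the other macronutrient deprivations. The genes were thus selected on their level under N deprivation, and the contrasts of 10-day deprivations with their control are given below as a description, without a test. By their identifiers, BnaA03g36860D lies on chromosome A03, BnaC01g22950D on chromosome C01 and BnaCnng62800D in the C subgenome on a sequence without an assigned chromosome.

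ATP sulfurylase catalyses the entry step of sulfate assimilation, in which sulfate taken up by sulfate transporters is activated with ATP to adenosine phosphosulfate (APS). APS is then either reduced on the way to sulfide, which cysteine synthase joins to O-acetylserine to form cysteine, or phosphorylated by APS kinase to PAPS, the sulfate donor of sulfation reactions such as those that make the glucosinolates of Brassicaceae. The reductases of this step are annotated as PAPS reductases in the study's tables, and that name is kept here, although plants reduce mainly APS. Because the carbon and nitrogen skeleton of cysteine comes from O-acetylserine, the pathway is a known meeting point of N and S metabolism, and in roots it starts beside the site of sulfate uptake.

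All plants were wild-type oilseed rape, cultivar Trezzor, grown hydroponically in a greenhouse with complete nutrient solution for 24 days and then either kept on it (controls) or moved to a solution lacking 1 element. Roots were taken at 10 days of deprivation of Ca, K, Mg, N, P or S, with a control (7 conditions, 21 libraries), and at 22 days of Cl, Co or Mn deprivation, with a control of that age (4 conditions, 12 libraries). Each of the 11 conditions had 3 libraries, described in the study as biological replicates made from pooled plants. Libraries held between 10115284 and 22841765 read pairs counted on genes (median 14050278), 63.9 to 76.0% of all pairs, and the opposite strand held at most 0.782% of the gene counts. The root label was not checked against tissue markers, since none is paired with a gene identifier in the sources used here.

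All 3 genes were counted well above the level at which sampling noise dominates. The raw count per library ran from 268 to 1662 for BnaCnng62800D (median 896), from 112 to 653 for BnaA03g36860D (median 456) and from 289 to 6571 for BnaC01g22950D (median 1658). On the opposite strand the 33 libraries together held 10, 34 and 12 pairs for these genes in that order, against 30717, 14392 and 57391 on the counted strand. The authors removed multi-mapped pairs, so a gene with a near-identical copy on the other subgenome was counted only where the copies differ in sequence. Levels are given as CPM, the usual count scaled to a fixed library size, after TMM scaling over all 33 libraries. They are compared between libraries for 1 gene, and not between genes, because transcript length was not used. In whole roots, less transcript per cell and fewer cells that carry it cannot be told apart.

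Under N deprivation all 3 transcripts stood at about the same fraction of their control. BnaCnng62800D gave 22.8, 22.2 and 23.8 CPM in replicates 1, 2 and 3 of N deprivation and 89.5, 38.3 and 64.5 CPM in the 10-day control. BnaA03g36860D gave 9.53, 10.7 and 11.7 CPM against 45.7, 20.8 and 30.2 CPM. BnaC01g22950D gave 59.3, 44.0 and 43.5 CPM against 232, 154 and 71.0 CPM. For each gene every N-deprived library lay below every control library, and the N-deprived libraries lay closer to each other than the control libraries did. The means under N deprivation were 35.7%, 32.9% and 32.2% of the control means for BnaCnng62800D, BnaA03g36860D and BnaC01g22950D, and the log2 fold changes of the fit were −1.47, −1.59 and −1.62. Of all 56667 genes tested at 10 days, 17% had every N-deprived library below every control library and 11.1% were called lower. Nothing about these genes is read from either share, because this contrast chose them.

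**Figure D1:**
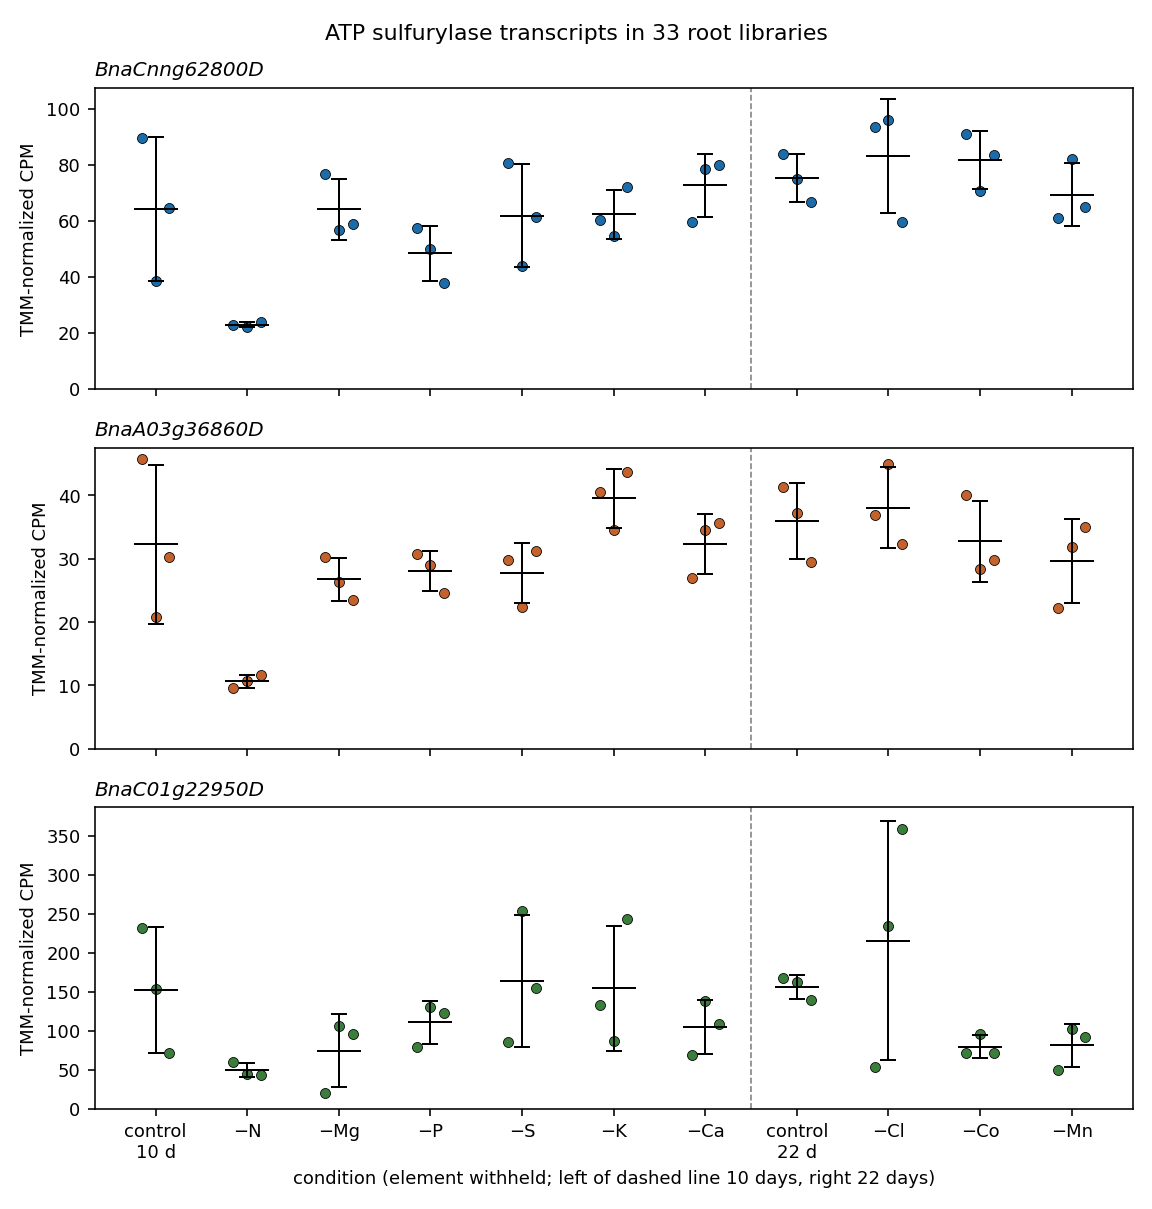
TMM-normalized CPM (y axis, linear, starting at 0) of the 3 ATP sulfurylase genes in each of 33 root libraries, by condition (x axis); points are libraries in replicate order, the long bar is the mean and the whiskers are ± 1 SD (n = 3). The 3 N-deprived libraries of BnaCnng62800D (22.2 to 23.8 CPM) and BnaA03g36860D (9.53 to 11.7 CPM) lie below all other libraries, whereas the libraries of BnaC01g22950D spread widely within conditions, from 53.5 to 359 CPM under Cl deprivation alone.

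The control itself was the most variable of the 10-day conditions for BnaCnng62800D and BnaA03g36860D. Its replicate 1 was the highest of the 21 libraries of 10 days for both genes, and its replicate 2 was the lowest outside N deprivation for BnaA03g36860D. The mean ± SD was 64.1 ± 25.6 CPM for BnaCnng62800D and 32.2 ± 12.6 CPM for BnaA03g36860D (n = 3). Without control replicate 1 the log2 fold changes under N deprivation were −1.17, −1.26 and −1.20 for BnaCnng62800D, BnaA03g36860D and BnaC01g22950D. Without control replicate 2 they were −1.74 and −1.83 for BnaCnng62800D and BnaA03g36860D, and without control replicate 3 the value of BnaC01g22950D was −1.96. When the libraries were scaled by their size alone, without TMM, the means under N deprivation were 41.0%, 37.9% and 37.3% of the control.

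The low level under N deprivation was also set against the 30 libraries of the other 10 conditions, as a description, since the N-deprived libraries chose the genes. The highest N-deprived library held 23.8 CPM of BnaCnng62800D and 11.7 CPM of BnaA03g36860D, and 30 of 30 other libraries lay above it for both genes. Of 57501 genes, 1.22% had every N-deprived library below the other 30, and nothing is read from that share. For BnaC01g22950D the highest N-deprived library held 59.3 CPM and 27 of 30 other libraries lay above it. The exceptions were replicate 1 of Mg deprivation (20.4 CPM), replicate 1 of Cl deprivation (53.5 CPM) and replicate 1 of Mn deprivation (49.7 CPM). The N-deprived level of BnaC01g22950D was thus within the range of single libraries of other conditions.

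The remaining 5 macronutrient deprivations overlapped the 10-day control for all 3 genes, which were chosen in part for not being called lower there. Among all genes 17.8%, 40.4%, 25.2%, 15.6% and 39.9% did not overlap the control in either direction under Mg, P, S, K and Ca deprivation. Under S deprivation BnaCnng62800D gave 80.5, 43.7 and 61.3 CPM, BnaA03g36860D gave 29.8, 22.4 and 31.1 CPM and BnaC01g22950D gave 84.8, 253 and 154 CPM. The corresponding log2 fold changes against the control were −0.04, −0.20 and 0.12. With sulfate, the substrate of the enzyme, withheld, the libraries of BnaCnng62800D and BnaA03g36860D lay inside the range of the control libraries and those of BnaC01g22950D overlapped it. Under P deprivation BnaCnng62800D gave 57.2, 50.03 and 37.7 CPM, its lowest mean outside N deprivation (48.3 ± 9.88 CPM, n = 3). BnaA03g36860D gave 30.7, 28.9 and 24.6 CPM and BnaC01g22950D 79.2, 130.2 and 123 CPM under the same deprivation. The log2 fold changes under P deprivation were −0.41, −0.20 and −0.46 for BnaCnng62800D, BnaA03g36860D and BnaC01g22950D.

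K deprivation gave the highest mean of BnaA03g36860D among all 11 conditions. This gene held 40.5, 34.4 and 43.6 CPM there, while BnaCnng62800D held 60.1, 54.6 and 72.0 CPM and BnaC01g22950D held 133, 86.9 and 243 CPM. Under Ca deprivation BnaCnng62800D gave 59.5, 78.5 and 79.8 CPM, BnaA03g36860D 26.9, 34.5 and 35.7 CPM and BnaC01g22950D 68.9, 138 and 109 CPM. Under Mg deprivation BnaCnng62800D gave 76.7, 56.8 and 58.8 CPM, BnaA03g36860D 30.3, 26.4 and 23.5 CPM and BnaC01g22950D 20.4, 106 and 96.1 CPM. The mean of BnaC01g22950D under Mg deprivation (74.3 ± 47.0 CPM, n = 3) was the lowest outside N deprivation. The log2 fold change against the control was −1.03 with all libraries and −0.58 without Mg replicate 1.

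Ranked by their condition means, the 3 genes had N deprivation at the bottom and few other steps. BnaCnng62800D ran from 83.1 ± 20.3 CPM under Cl deprivation to 22.9 ± 0.81 CPM under N deprivation (n = 3 each), a 3.63-fold range that was 1.72-fold without N deprivation. BnaA03g36860D ran from 39.5 ± 4.66 CPM under K deprivation to 10.6 ± 1.06 CPM, a 3.72-fold range that was 1.48-fold without N deprivation. BnaC01g22950D ran from 215 ± 153 CPM under Cl deprivation to 49.0 ± 8.97 CPM, 4.40-fold with N deprivation and 2.90-fold without. Of the 10 neighbouring pairs in each order, 9 overlapped in their libraries for BnaCnng62800D, 9 for BnaA03g36860D and 10 for BnaC01g22950D. The 1 step without overlap was the last for both genes that had one, from P deprivation to N deprivation in BnaCnng62800D and from Mg deprivation to N deprivation in BnaA03g36860D.

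The Mg, P, S, K and Ca deprivations were also compared with each other in 10 direct contrasts, fitted with edgeR's quasi-likelihood test over all 56667 genes. In these 30 tests 0 were called at an adjusted p of at most 0.05 (Benjamini-Hochberg over all genes), whereas the same test called 42.4%, 25%, 13.5% and 37.1% of all genes for Mg against P, S, K and Ca, 11.4%, 29.6% and 22.5% for P against S, K and Ca, 12.7% and 24% for S against K and Ca, and 26.8% for K against Ca. The libraries of these 5 deprivations entered the choice of the genes, which were not called lower there against the control, so the count of 0 is not read against these shares. The lowest adjusted p was 0.0829. An unadjusted p of at most 0.05 was reached in 5 of the 30 tests. Among all genes 25.9% (P against S) to 50.4% (Mg against P) reached it in these contrasts. The count of 5 is not read against these shares either. A p that misses the threshold does not show equal levels: the 95% confidence intervals of the log2 differences reached from −1.14 to 0.94 for BnaCnng62800D, from −1.01 to 0.71 for BnaA03g36860D and from −2.27 to 1.73 for BnaC01g22950D.

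The larger direct differences involved K deprivation for BnaA03g36860D. This gene was lower under Mg than under K deprivation in all libraries (log2 difference −0.57, SE 0.21, edgeR adjusted p = 0.0829; 14.6% of all genes had every Mg library below every K library). It was also below K deprivation in every library of P deprivation (−0.50, SE 0.21, adjusted p = 0.0868) and of S deprivation (−0.50, SE 0.21, adjusted p = 0.127). The shares of all genes without overlap in that direction were 22.4% for P below K and 15.9% for S below K. BnaCnng62800D was lower under P than under Ca deprivation in every library (−0.61, SE 0.26, edgeR adjusted p = 0.0993, where 20.7% of all genes had the same arrangement). BnaC01g22950D had its largest difference between Mg and S deprivation (−1.15, SE 0.53, adjusted p = 0.121), with overlapping libraries. These 5 differences failed the correction for the number of genes, and 2 of them passed it when only the 6 libraries compared entered the fit: BnaA03g36860D in P against K (−0.48, edgeR adjusted p = 0.0392) and BnaCnng62800D in P against Ca (−0.60, edgeR adjusted p = 0.0387).

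**Figure D2:**
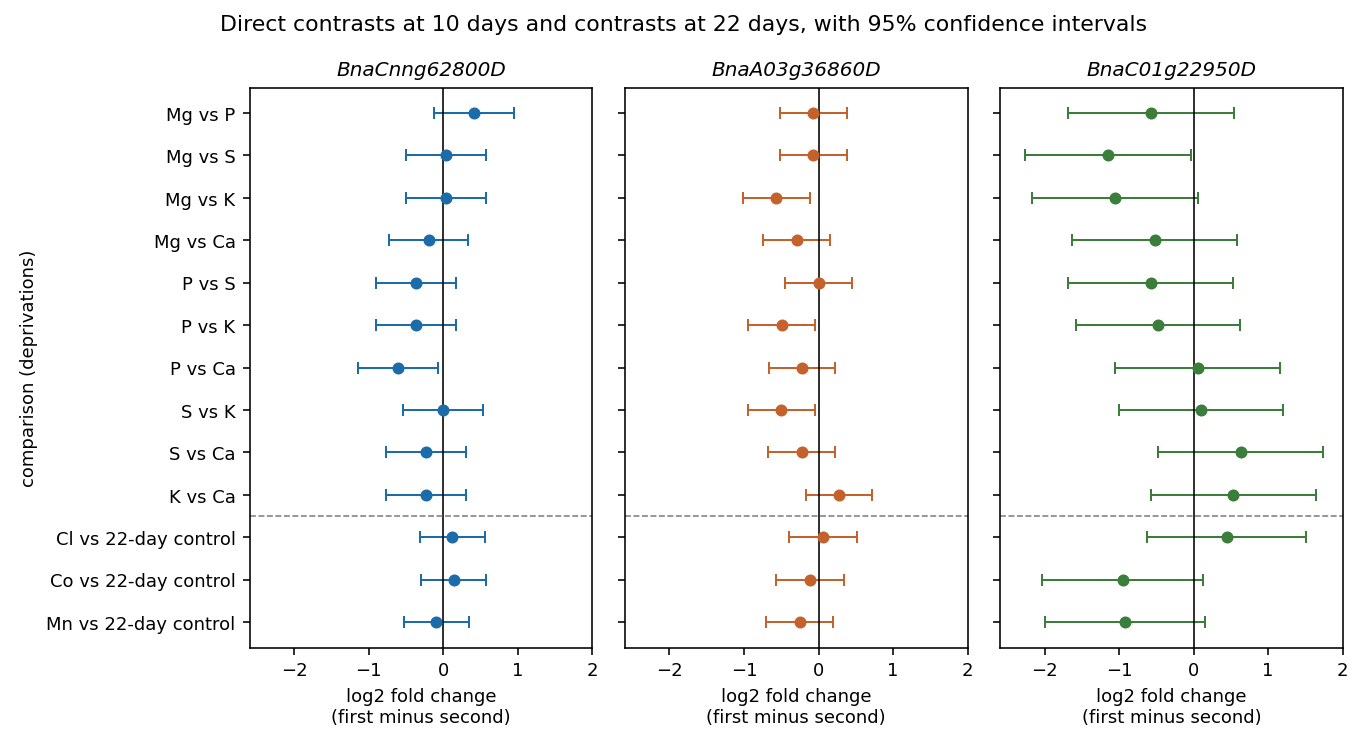
Log2 fold change (x axis, first named condition minus the second) with 95% confidence interval of each ATP sulfurylase gene in the 10 direct contrasts at 10 days and the 3 contrasts with the control at 22 days (y axis, separated by the dashed line; n = 3 per condition). The intervals of BnaC01g22950D are the widest of the 3, from −2.27 to 1.73 at 10 days, and the intervals that leave out 0 are those of the 5 differences with an unadjusted p of at most 0.05.

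At 22 days the question was whether prolonged lack of a micronutrient (Cl, Co or Mn; Co being a beneficial element rather than an established nutrient of plants) moved the same genes, in libraries that had no part in their choice. BnaCnng62800D gave 83.9, 75.03 and 66.6 CPM in the 22-day control, 93.5, 96.1 and 59.7 CPM without Cl, 91.0, 70.5 and 83.4 CPM without Co and 60.9, 82.1 and 64.9 CPM without Mn. BnaA03g36860D gave 41.3, 37.2 and 29.4 CPM in the control, 36.9, 44.9 and 32.4 CPM without Cl, 40.1, 28.3 and 29.7 CPM without Co and 22.2, 31.8 and 34.9 CPM without Mn. For both genes the libraries of every deprivation overlapped those of the control, with log2 fold changes between −0.09 and 0.14 for BnaCnng62800D and between −0.25 and 0.06 for BnaA03g36860D. Their 95% confidence intervals reached from −0.53 to 0.58 and from −0.71 to 0.51. The log2 values under N deprivation at 10 days, −1.47 and −1.59, lay outside them. Those values came from the contrast that chose the genes and were −1.17 and −1.26 without control replicate 1, so the comparison is a description.

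BnaC01g22950D gave 167, 162 and 139 CPM in the 22-day control and lay below it in all 3 libraries without Co (71.3, 96.1 and 71.0 CPM) and in all 3 without Mn (49.7, 102 and 91.6 CPM). The log2 fold change was −0.95 without Co (95% interval −2.03 to 0.12, edgeR adjusted p = 0.4998) and −0.92 without Mn (−1.997 to 0.16, adjusted p = 0.476). Both contrasts used the same 3 control libraries, and neither passed the test. Both intervals held the log2 value of −1.62 that this gene had under N deprivation at 10 days. Among all genes 11.2% had every Co-deprived library below the control and 10.6% every Mn-deprived library. Without Cl the 3 libraries of this gene gave 53.5, 234 and 359 CPM and enclosed the control (log2 fold change 0.44, 95% interval −0.62 to 1.51). In all, 0 of 9 tests at 22 days were called and 0 had an unadjusted p of at most 0.05. The same edgeR test called 0% of the 54251 genes in each of the 3 contrasts, while 2225, 5588 and 6326 genes had an unadjusted p of at most 0.05 without Cl, Co and Mn. The Wald test of DESeq2 called 34, 52 and 182 genes and the likelihood ratio test of edgeR 33, 77 and 182, none of them an ATP sulfurylase gene.

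The control of 22 days lay close to that of 10 days for all 3 genes. The log2 differences, 22 days minus 10 days, were 0.23 for BnaCnng62800D, 0.16 for BnaA03g36860D and 0.04 for BnaC01g22950D, with overlapping libraries. For BnaC01g22950D the 22-day control was narrow (156 ± 15.2 CPM) where the 10-day control was wide (152 ± 80.4 CPM, n = 3 each).

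BnaCnng62800D and BnaA03g36860D moved together from library to library, whereas BnaC01g22950D did not move with them within conditions. Over the 33 libraries the Pearson r of log2 CPM between BnaCnng62800D and BnaA03g36860D was 0.904, the highest that either gene reached with any of 57500 others, and Spearman's rho was 0.756, again the highest. This r includes the N-deprived libraries that chose both genes. Over the 30 other libraries it was 0.718, which was the highest of all genes for BnaA03g36860D and the 28th highest for BnaCnng62800D. Over deviations from the mean of each condition, which leave out every difference between conditions, it was 0.843, and over the 12 libraries of 22 days 0.691. These 3 sets of points were added after the data were seen. Points of these correlations share the library, its depth and its scaling, and they are given as a description. BnaC01g22950D had an r of 0.239 with BnaCnng62800D and 0.456 with BnaA03g36860D over the 33 libraries, and of −0.24 and 0.05 over the deviations. Over the 30 libraries without N deprivation its r was −0.15 and 0.25. Over the 11 condition means, N deprivation included, its r was 0.543 and 0.728, and its Spearman's rho over the 33 libraries was 0.160 and 0.444.

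The shared movement showed in single libraries. Replicate 1 of the 10-day control was 0.56 above its condition mean on the log2 scale for BnaCnng62800D and 0.58 above for BnaA03g36860D. Replicate 2 of the same control had deviations of −0.66 and −0.56. The 2 genes therefore kept their proportion inside a condition: the log2 ratio of their CPM had an SD of 0.17 within conditions, against 0.31 and 0.28 for the genes themselves, and of 0.81 to 0.90 for the ratios with BnaC01g22950D.

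Between conditions the mean of that ratio varied, with an SD of 0.20 over the 11 condition means against 0.17 within conditions. The mean log2 ratio of BnaCnng62800D over BnaA03g36860D ran from 0.65 ± 0.08 under K deprivation and 0.77 ± 0.14 under P deprivation to 1.33 ± 0.15 under Co deprivation (SD, n = 3). In the 10-day control it was 0.98 ± 0.11 and under N deprivation 1.10 ± 0.12, so that both transcripts were lower there in nearly the same proportion. The 3 libraries of K deprivation gave log2 ratios from 0.57 to 0.72, below those of the 10-day control (0.88 to 1.09). Those of Mg deprivation (1.10 to 1.34) lay just above that control and those of Ca deprivation (1.14 to 1.18) above it. Those of Co deprivation (1.18 to 1.48) lay just above the 22-day control (1.01 to 1.18). The other deprivations overlapped their control. These ratios were not tested, and how often other gene pairs leave the range of their control was not counted, so nothing is read from the lack of overlap.

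**Figure D3:**
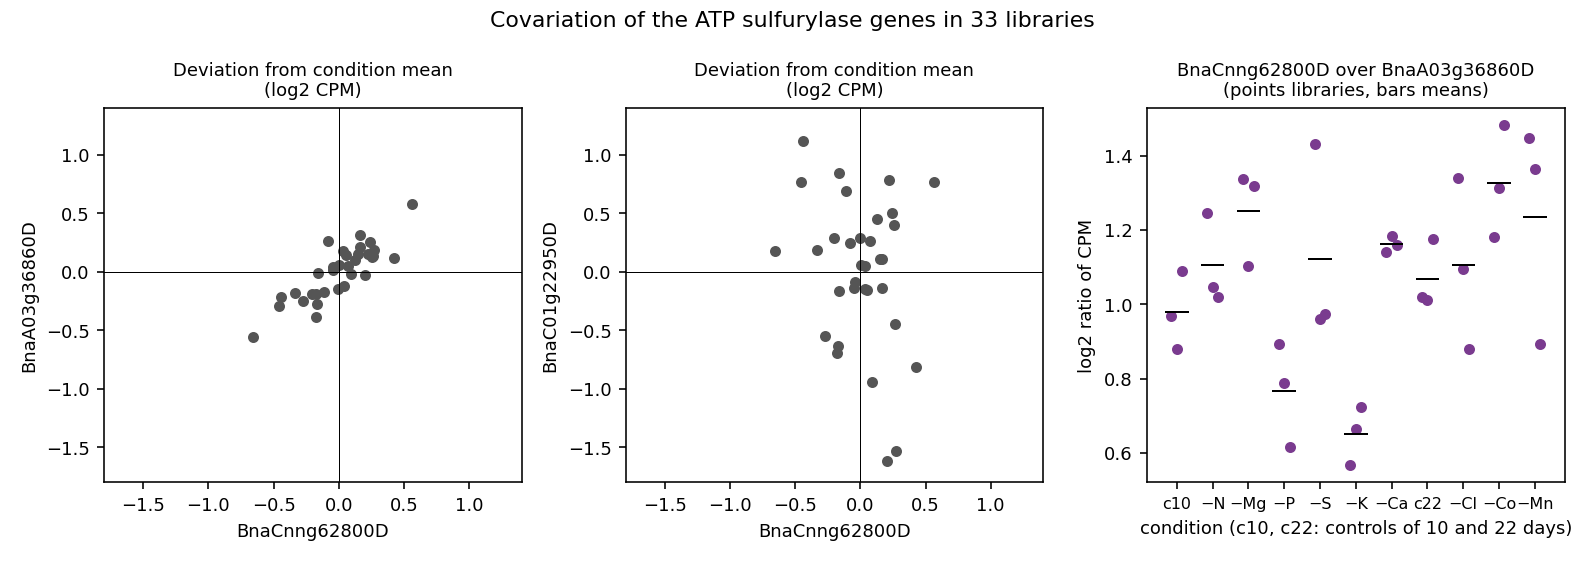
Left and middle, deviation of log2 CPM from the condition mean (both axes, log2 units) of BnaA03g36860D and of BnaC01g22950D against BnaCnng62800D in 33 libraries; right, log2 ratio of the CPM of BnaCnng62800D over BnaA03g36860D (y axis) by condition, with points for libraries and bars for means of 3. The left panel follows a line (r = 0.843), the middle panel does not (r = −0.24), and the ratio is lowest under K deprivation (mean 0.65).

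BnaC01g22950D was the variable member. Its SD of log2 CPM within conditions was 0.78, larger than that of 95.7% of 57501 genes and of 97.1% of the genes at a like level, against a median of 0.32 over all genes. Differences between conditions made up 44.9% of its variance, compared with 78.4% for BnaCnng62800D, 81.8% for BnaA03g36860D and a median of 60.8%. Its extremes were replicate 1 of Cl deprivation, at −1.62 from the condition mean on the log2 scale, replicate 1 of Mg deprivation, at −1.53, and replicate 3 of Cl deprivation, at 1.12. The 2 low libraries were not low for the other members (0.20 and 0.27 above the mean for BnaCnng62800D).

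The variation of BnaC01g22950D went with that of many genes. Over the deviations, 1834 of 57500 genes (3.19%) had an r above 0.8 with it, compared with 12 for BnaCnng62800D and 3 for BnaA03g36860D. The TMM scaling factor of a library, which offsets differences in RNA composition, moved with it as well: the r of the deviations was −0.82 for BnaC01g22950D, 0.37 for BnaCnng62800D and 0.04 for BnaA03g36860D. The factors ran from 0.832 in replicate 3 of Cl deprivation to 1.13 in replicate 3 of N deprivation. Scaled by library size alone, the SD of BnaC01g22950D within conditions was 0.72, against 0.78 with the factors. The r with the number of counted pairs was 0.23. The part of library composition in the spread of this gene was not tested.

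The genes whose level was most like that of each member were taken as the 3 with the highest r over 33 libraries. For BnaCnng62800D they were BnaA03g36860D and the PAPS reductases BnaA03g59800D (r = 0.869) and BnaC04g19270D (r = 0.828). Their transcripts, for the reductive step that follows APS formation, averaged 16.7 ± 3.67 and 30.6 ± 5.17 CPM under N deprivation against 61.9 ± 31.4 and 61.5 ± 24.5 CPM in the 10-day control. For BnaA03g36860D the list held BnaCnng62800D, the PAPS reductase BnaC07g37060D (r = 0.859) and BnaC09g22760D (r = 0.836), which the sources used here do not annotate. BnaC07g37060D averaged 31.0 ± 0.50 CPM under N deprivation against 130.0 ± 20.7 CPM in the control. For BnaC01g22950D they were BnaA01g19120D (r = 0.931) and BnaC05g19610D (r = 0.910), both without annotation in these sources, and BnaA07g09120D (r = 0.901), annotated as a glutathione S-transferase, an enzyme that joins glutathione to other molecules. BnaA07g09120D shared the wide range under Cl deprivation, from 28.5 to 191 CPM. All these values include the N-deprived libraries, and the study had listed BnaA03g59800D, BnaC04g19270D and BnaA07g09120D too for their response to N deprivation. Over the 30 libraries without N deprivation BnaA03g59800D ranked 112th (r = 0.670) and BnaC04g19270D 92nd (r = 0.678) for BnaCnng62800D. BnaC07g37060D ranked 138th (r = 0.578) for BnaA03g36860D over those libraries.

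Over the 33 libraries the 7 PAPS reductases as a list followed the first 2 members. Their median r was 0.776 with BnaCnng62800D, 0.754 with BnaA03g36860D and 0.339 with BnaC01g22950D, where the median over all genes was between −0.01 and 0.00. Over deviations within conditions these medians were 0.779, 0.626 and −0.17, and over the 30 libraries without N deprivation 0.412, 0.378 and 0.10. Over the 12 libraries of 22 days they were 0.658, 0.493 and −0.09, and the closest reductase ranked 275th, 3758th and 25332nd among all genes. The 12 sulfate transporters had medians of 0.533, 0.450 and 0.251 over the 33 libraries. The 11 APS kinases had 0.01, 0.221 and 0.375, and the 3 cysteine synthases 0.297, 0.359 and 0.162. These lists came from the study's tables, which were made from the same libraries, so that they are no independent evidence of direction.

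Against the 10-day control, many PAPS reductases and sulfate transporters were called lower under N deprivation and higher under S deprivation, and fewer APS kinases and cysteine synthases were called. Of the 7 PAPS reductases 6 were called lower and 0 higher under N deprivation (median log2 fold change −2.06, all genes 0.01), and 5 were called higher and 0 lower under S deprivation (median 0.92, all genes −0.01). Of the 12 sulfate transporters 7 were called lower under N deprivation (median −2.26) and 9 higher under S deprivation (median 1.54). Under P deprivation 8 of the 12 were called lower and 1 higher (median −1.46), where 14.3% of all genes were lower and 15.1% higher. Of the 11 APS kinases 5 were lower under N and 2 higher under S deprivation, and of the 3 cysteine synthases 1 was lower under N deprivation and 0 passed under S deprivation. Among all genes 11.1% were called lower under N and 4.22% higher under S deprivation. The study had listed the sulfate transporters for S deprivation, and the PAPS reductases for N or S deprivation, on these same contrasts. Part of the APS kinases and cysteine synthases had been listed in the same way. The counts therefore restate that choice in part, are given as a description, and are not read against the shares of all genes. The ATP sulfurylase genes had a median of −1.59 under N deprivation and of −0.04 under S deprivation. Both contrasts share the control libraries. The count of PAPS reductases higher under S deprivation rested on single libraries: it was 0 without control replicate 2 and 0 without S replicate 1, 2 without control replicate 3 or S replicate 3, and 0 when only the 6 libraries compared were fitted. The 9 sulfate transporters became 6 without control replicate 2 or S replicate 1 and 2 with only those 6 libraries.

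Direct contrasts with S deprivation set the members beside the same lists. The study had listed the sulfate transporters, and part of the PAPS reductases and APS kinases, for their response to S deprivation in these libraries, and the members for N deprivation alone. The counts below follow in part from that choice and are given as a description. In P against S deprivation 6 of 7 PAPS reductases were lower under P (median −1.31) and 11 of 12 sulfate transporters were lower and 1 higher (median −2.95), where 6.13% of all genes were lower and 5.23% higher and 0 of 3 ATP sulfurylase genes were called (median −0.37). The largest change was that of the sulfate transporter BnaA02g10510D, with 0.174 ± 0.238 CPM under P and 188 ± 15.0 CPM under S deprivation (n = 3 each; log2 difference −10.02). The sulfate transporter BnaC02g14670D held 0.721 ± 0.365 and 128 ± 10.8 CPM in the same contrast. In the 10-day control these transporters held 2.66 ± 0.288 and 3.64 ± 0.535 CPM, so they were lower under P deprivation as well as higher under S deprivation. In Mg against S deprivation 5 PAPS reductases and 8 sulfate transporters were lower under Mg, and 6 APS kinases were lower and 2 higher, with 0 of 3 ATP sulfurylase genes called (all genes 13.3% lower and 11.7% higher). In S against Ca deprivation 11 sulfate transporters, 4 APS kinases and 3 PAPS reductases were higher under S and 1 transporter was lower, again with 0 of 3 members called (all genes 12.7% higher and 11.3% lower). In S against K deprivation 8 sulfate transporters, 1 PAPS reductase, 1 APS kinase and 1 cysteine synthase were higher under S, and 2 APS kinases and 1 cysteine synthase were lower (all genes 5.24% higher and 7.43% lower). That 1 PAPS reductase became 0 without any 1 of the K libraries or without S replicate 1 or 3, and 2 without S replicate 2. In the same contrast the 1 APS kinase higher and the 2 lower each fell to 0 as single libraries were left out. Its cysteine synthase counts were 0 in both directions when only the 6 libraries compared were fitted. The 6 APS kinases lower under Mg than under S deprivation became 3 when only the 6 libraries of that contrast were fitted. The 3 PAPS reductases higher under S than under Ca deprivation became 0 without S replicate 1 or Ca replicate 1, whereas the 6 lower under P than under S deprivation ranged from 5 to 7 as each library was left out. The difference between the members and the lists was not itself tested.

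**Figure D4:**
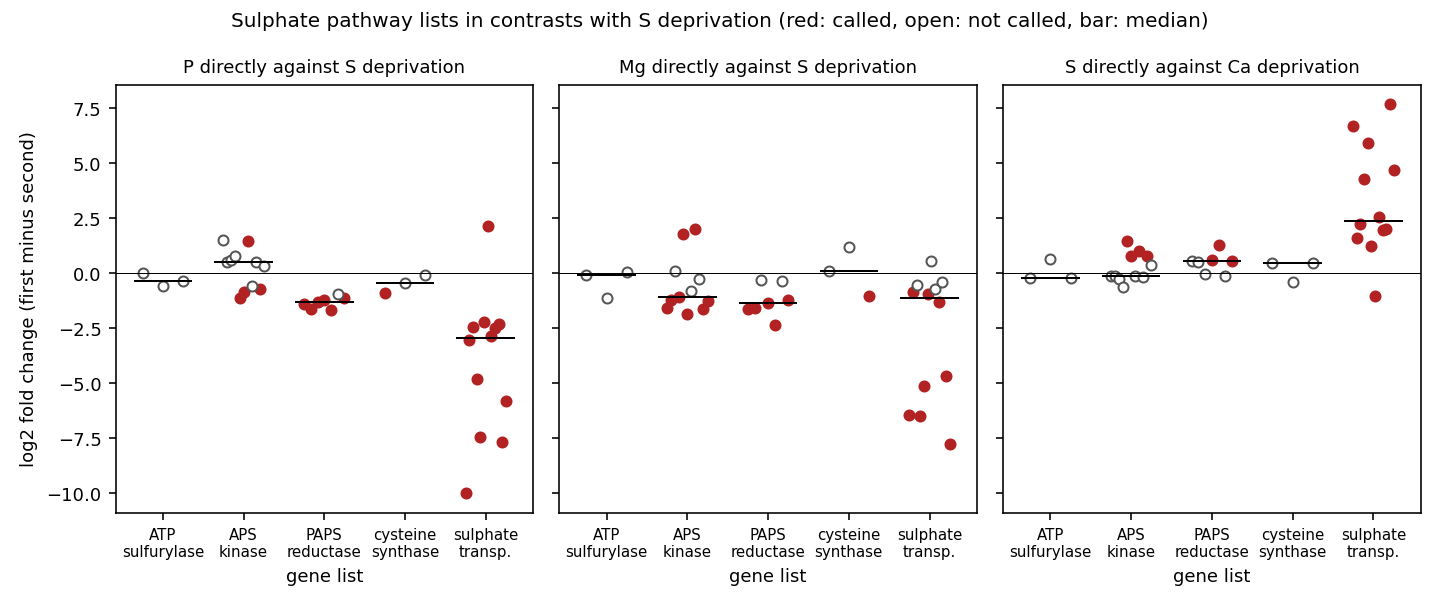
Log2 fold change (y axis, first named condition minus the second) of each gene of 5 lists (x axis) in 3 direct contrasts that include S deprivation, on whose libraries part of the lists was chosen; red points passed the edgeR test over all genes, open points did not, and bars are list medians. The 3 ATP sulfurylase genes are open in all panels, while 11 of 12 sulfate transporters and 6 of 7 PAPS reductases are lower under P than under S deprivation in the left panel.

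In the direct contrasts without S deprivation, the APS kinases, which compete with the reductases for APS, differed between Mg deprivation and the others. Most of them, BnaA06g25000D included, had been listed by the study for their response to Mg deprivation in these libraries, so their counts and levels restate that choice. BnaA06g25000D held 75.9 ± 2.92 CPM under Mg deprivation against 10.1 ± 2.37 under P, 16.8 ± 3.54 under K and 8.00 ± 1.49 under Ca deprivation (n = 3 each, log2 differences 2.90, 2.18 and 3.22). At the same time 7, 8 and 6 of the 11 APS kinases were lower under Mg than under P, K and Ca deprivation, and 2 were higher each time (all genes 21.3%, 6.56% and 18.1% lower and 21.1%, 6.93% and 19% higher). PAPS reductases were lower under Mg than under K and Ca deprivation in 5 of 7 genes each (median −0.88 and −0.73). They were also lower under P than under K deprivation in 5 and than under Ca deprivation in 6 (median −0.91 and −0.88; all genes 14.8% and 10.2% lower). The last of these counts fell to 1 without replicate 3 of Ca or P deprivation and to 2 without replicate 2 of either. Leaving out replicate 1 of K or Mg deprivation took the 8 APS kinases lower under Mg than under K deprivation to 5. Among the ATP sulfurylase genes the contrasts of Mg with K and Ca and of P with K and Ca gave log2 differences of −0.57, −0.29, −0.50 and −0.22 for BnaA03g36860D, of 0.04, −0.20, −0.37 and −0.61 for BnaCnng62800D and of −1.05, −0.52, −0.48 and 0.05 for BnaC01g22950D, none of which passed the test.

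At 22 days 0 genes of the 4 lists passed the edgeR test in any of the 3 contrasts, with all APS kinases, PAPS reductases and cysteine synthases and 10 of the 12 sulfate transporters counted highly enough to be tested. The test called 0% of all 54251 genes in each of these contrasts, so nothing about the lists is read from that count. The 7 PAPS reductases had median log2 fold changes of 0.26 without Cl, 0.44 without Co and 0.34 without Mn. The members BnaCnng62800D and BnaA03g36860D had 0.12 and 0.06 without Cl, 0.14 and −0.12 without Co and −0.09 and −0.25 without Mn.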

How the data were processed

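The authors prepared stranded mRNA libraries from roots, aligned the paired reads with STAR to the Genoscope annotation and deposited unnormalized whole counts for each gene and library from which multi-mapped pairs were absent. The reverse-strand column was used. Counts were filtered with filterByExpr and scaled by TMM, and edgeR 4.0.16 (R 4.3.3) quasi-likelihood tests were fitted over all 21 libraries of 10 days or all 12 of 22 days with 1 coefficient per condition. Two-sided p-values were adjusted by Benjamini-Hochberg over 56667 or 54251 genes, with calls at 0.05. SE is the fold change over the root of F, and intervals are 95%. For likeness, log2 CPM values (prior count 2) of 57501 genes were taken. Confidence intervals cover the spread between these libraries. Genes and gene lists were chosen with earlier results of these data known: the members, the lists of APS kinase, PAPS reductase, cysteine synthase and sulfate transporter genes, at most 3 called list genes per tested contrast by size, and 3 most alike genes per member. Alternatives were DESeq2 1.42.0, edgeR's likelihood ratio test, other scalings and filters, counts without strand, fewer or more libraries, a replicate block and leaving out each library. Same-numbered libraries were checked for shared deviations: all 3 correlations exceeded 0.1 in 1 of 20 comparisons (Co deprivation with its control, 0.13 to 0.45), where the block changed no call of a member. The code was tested on simulated data.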

Additional observations from a re-analysis of the deposited data

How the results depend on the processing

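Under 16 alternatives each, the 13 tested contrasts gave 0 called members, except that P against K and P against Ca each gave 1 when only the 6 libraries compared were fitted (edgeR adjusted p = 0.0392 and 0.0387), a fit with fewer genes and a spread from fewer samples. Of 624 values of members in these alternatives, 2 were called and 35 uncalled ones changed sign, all with a main log2 difference of at most 0.48 in size. With the replicate block the counts stayed at 0 in all 13 contrasts. Leaving out 1 library at a time, the log2 fold change under N deprivation ran from −1.74 to −1.17 for BnaCnng62800D, from −1.83 to −1.26 for BnaA03g36860D and from −1.96 to −1.20 for BnaC01g22950D. The lowest and highest values came without 10-day control replicates, and the other settings gave values from −1.50 to −1.40, −1.62 to −1.51 and −1.66 to −1.55. At 22 days edgeR's main test called 0 genes in each contrast, and DESeq2 called 34, 52 and 182 without Cl, Co and Mn. With only the 6 libraries compared, the genes called went from 11362 to 6439 under N, 5011 to 71 under S and 2026 to 34 under Mg deprivation against the control, and from 14189 to 7982, 7643 to 2447 and 7180 to 3858 in Mg against S, Mg against K and S against K. In P against K and P against Ca, where a member was called, they went from 16754 to 15775 and from 12748 to 14779. Over the 12 libraries of 22 days alone, a choice made after seeing the data, the r between BnaCnng62800D and BnaA03g36860D was 0.691, the 537th highest for the former and the 1390th for the latter. With 3 libraries per condition, the SE of a log2 difference was 0.20 to 0.26 for these 2 genes and 0.49 to 0.53 for BnaC01g22950D, which sets the size of difference that could be detected.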
